A study of Mus musculus with 12 samples.

Results

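Small nucleolar RNAs (snoRNAs) guide chemical modification and processing of ribosomal RNA, and most mammalian snoRNAs are cut from introns of other genes. Some of these host genes encode ribosomal proteins or translation factors, while others make a spliced RNA that encodes no known protein. The spliced RNAs of noncoding hosts are known targets of nonsense-mediated decay, and several, Gas5 among them, begin with a pyrimidine tract of the kind found in ribosomal protein mRNAs, which ties their fate to growth signals. The genes described here are 8 noncoding snoRNA hosts taken by name, Gas5, Snhg1, Snhg3, Snhg4, Snhg5, Snhg6, Snhg8, and Snhg12, out of 23309 genes with values. All 8 were listed, and all 8 were among the 11516 genes that reached 1 FPKM (fragments scaled to transcript length and library size) in at least 2 of the 12 libraries.

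The study followed mouse bone marrow CD117+ progenitors that were immortalized with a retrovirus carrying ER-HoxB8, a fusion of the estrogen receptor to HoxB8 that blocks maturation while estradiol (E2) is present. All cells, controls included, carried this fusion and grew in IL-3. Wild-type cells and HMGN1-OE cells, which came from mice with a human HMGN1 transgene, were taken at 0, 36, and 96 h after E2 withdrawal, with 2 libraries in each of the 6 groups. The sample titles number 2 cultures of each genotype, which the study calls biological duplicates. Ages of the mice, and whether the cultures came from separate mice, are not given in the sources used here. The p-values therefore rest at most on the spread between these libraries. For values as deposited, the spread used was a trend over all tested genes and not a gene's own. The transgene's own reads were not analysed here.

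The values were scaled by the authors to synthetic RNAs added to a fixed number of cells, so they follow RNA per cell. FPKM summed over genes ran from 680258 to 1442573 at 0 and 36 h and from 228955 to 559135 at 96 h, and the lowest sum was that of the second wild-type library at 96 h. Changes are therefore given on a deposited scale, log2(FPKM + 1), and on a centred scale, from which the median of the tested genes of each library was subtracted. Summed FPKM of 8 maturing myeloid markers was 311 to 2810 at 0 and 36 h and 59900 to 164000 at 96 h, and that of 6 immature myeloid markers was 5370 to 21700 and then 118 to 2300. Of the 6 immature markers 3 were lower and 1, Kit, higher from 0 to 96 h against the library median, and as deposited 5 were lower and 0 higher. In HMGN1-OE cells by themselves Elane was higher at 96 h on both scales (1.78 as deposited, 3.09 centred). Of 17 markers of other blood cells, 10 passed the filter on low values. Their sum was 408 to 824 at 0 h, 813 to 2640 at 36 h, and 300 to 2470 at 96 h, held mostly by Cpa3, Mcpt8, and Prg2. Against the library median 6 of the 10 were higher at 96 h than at 0 h and 1 was lower, with a median of 1.13, and as deposited 3 were higher and 4 lower. The eosinophil gene Prg2 had a mean of 6.21 FPKM at 0 h and 1450 at 96 h in wild-type cells and of 16 and 329 in HMGN1-OE cells, while the mast cell gene Cpa3 had means of 397 and 157 and of 430 and 104. The B and T cell markers Pax5, Cd3e, and Cd8a had group means of at most 0.145 FPKM. In bulk libraries fewer cells of a type and less RNA per cell cannot be told apart, and the part of these markers in the results below was not tested.

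Promoter windows from RefSeq's table, build GRCm38.p6, were used for 6 of the 8 host genes, with 7 windows because Gas5 has 2 listed starts. Snhg4 and Snhg6 have no window here. The selection of host windows skipped a chromosome that the shares over all promoters below include, so a host window on it would not be shown. The values were made on another build (mm9 by the labels), so these windows serve only as sequence. Each stretch below has 40 bases before the start and 20 bases from the start on, 5′ to 3′ on the gene's strand. Capitals mark a TATA-type match (TATAAA or TATATA on either strand, lying from 45 to 16 bases before the start) and the longest run of C and T that touches the 5 bases on either side of the start. They are shown because a pyrimidine tract at the start is a known mark of ribosomal protein genes and of some snoRNA hosts, and the TATA box is the classical core promoter element.
Gas5, upstream start, chr1:161034561-161034620, plus strand: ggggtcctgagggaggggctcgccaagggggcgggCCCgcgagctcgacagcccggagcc
Gas5, downstream start, chr1:161035126-161035185, plus strand: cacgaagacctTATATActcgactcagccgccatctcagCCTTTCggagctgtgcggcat
Snhg1, chr19:8723447-8723506, plus strand: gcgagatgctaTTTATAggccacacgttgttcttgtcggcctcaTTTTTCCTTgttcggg
Snhg3, chr4:132353667-132353726, minus strand: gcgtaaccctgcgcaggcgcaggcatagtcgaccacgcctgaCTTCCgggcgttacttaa
Snhg5, chr9:88522878-88522937, minus strand: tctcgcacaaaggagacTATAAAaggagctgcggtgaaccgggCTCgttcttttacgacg
Snhg8, chr3:123508317-123508376, minus strand: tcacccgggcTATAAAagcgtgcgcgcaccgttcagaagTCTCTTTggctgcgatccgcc
Snhg12, chr4:132308638-132308697, plus strand: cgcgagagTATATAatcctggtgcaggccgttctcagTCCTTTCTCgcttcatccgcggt
A TATA-type match was present in 5 of the 7 windows, those of Gas5 (downstream start), Snhg1, Snhg5, Snhg8, and Snhg12, against 3.5% of all 32851 promoters in the table and 4.05% of 74 promoters of ribosomal protein genes. In Snhg1 the match was on the opposite strand. The pyrimidine run was 9 bases long in Snhg1 and Snhg12, 7 in Snhg8, 6 at the downstream start of Gas5, 5 in Snhg3, and 3 in Snhg5 and at the upstream start of Gas5. Runs of at least 8 bases were found in 2 of the 7 windows, in 9.72% of all promoters, and in 33.8% of those of ribosomal protein genes. These matches describe the letters of the windows, not use of the sites.

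Snhg1, host of Snord22 and other box C/D snoRNAs, had the highest level of the 8. It stood at 270 and 498 FPKM in wild-type and 395 and 287 in HMGN1-OE libraries at 0 h, and at 551 and 667 against 358 and 421 at 36 h. At 96 h it was listed at 35.5 and 9.93 in wild-type and 34.0 and 66.2 in HMGN1-OE libraries, so that no library at 96 h reached any earlier library. Snhg3, host of the box H/ACA snoRNAs Snora73a and Snora73b, had 189 and 369 FPKM in wild-type and 303 and 231 in HMGN1-OE cells at 0 h. At 36 h these were 450 and 444 against 270 and 296, and at 96 h 24.2 and 13 against 25.2 and 46.4. Its libraries at 96 h likewise all lay below the earlier ones.

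Gas5, a growth arrest transcript that hosts many box C/D snoRNAs and is known to build up when translation or growth stops, was not called higher at 36 or 96 h here. It had 127 and 243 FPKM in wild-type and 196 and 137 in HMGN1-OE cells at 0 h, 213 and 277 against 166 and 173 at 36 h, and 11.9 and 4.40 against 11.2 and 20.8 at 96 h. The highest library at 96 h was thus far below the lowest one at 0 h.

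Snhg5, a box C/D host, had 83.4 and 157 FPKM in wild-type and 130 and 95.9 in HMGN1-OE cells at 0 h, 143 and 180 against 112 and 120 at 36 h, and 20.9 and 5.84 against 17.4 and 27.2 at 96 h. Snhg6, which hosts Snord87, had 60.7 and 132 FPKM in wild-type and 145 and 117 in HMGN1-OE cells at 0 h, 133 and 141 against 136 and 137 at 36 h, and 10.8 and 4.27 against 18 and 32.9 at 96 h. The genotypes overlapped for both genes at 0 h, and at 96 h both HMGN1-OE libraries were above both wild-type libraries for Snhg6 but not for Snhg5.

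Snhg12, which hosts Snora16a, Snora44, Snora61, and Snord99, had 38.3 and 70.0 FPKM in wild-type and 58.4 and 44.1 in HMGN1-OE cells at 0 h, 56.4 and 67.6 against 47.7 and 50.4 at 36 h, and 4.78 and 1.69 against 5.80 and 7.33 at 96 h. Snhg4, host of Snora74a, had 27.0 and 50.8 FPKM in wild-type and 40.8 and 30.5 in HMGN1-OE cells at 0 h, 49.6 and 63.8 against 33.2 and 35.7 at 36 h, and 2.23 and 0.923 against 2.63 and 4.94 at 96 h. Snhg8, host of Snora24, was the lowest of the 8 by its mean, with 20.2 and 25.8 against 24.3 and 20.8 FPKM at 0 h, 28.5 and 36.7 against 19.4 and 20.5 at 36 h, and 4.99 and 1.84 against 3.82 and 6.28 at 96 h. For each of these 3 genes, too, every library at 96 h was below every earlier one. This held for all 8 host RNAs as deposited, where it held for 76.3% of tested genes, and for all 8 against the library median, where it held for 31.5%.

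**Figure D1:**
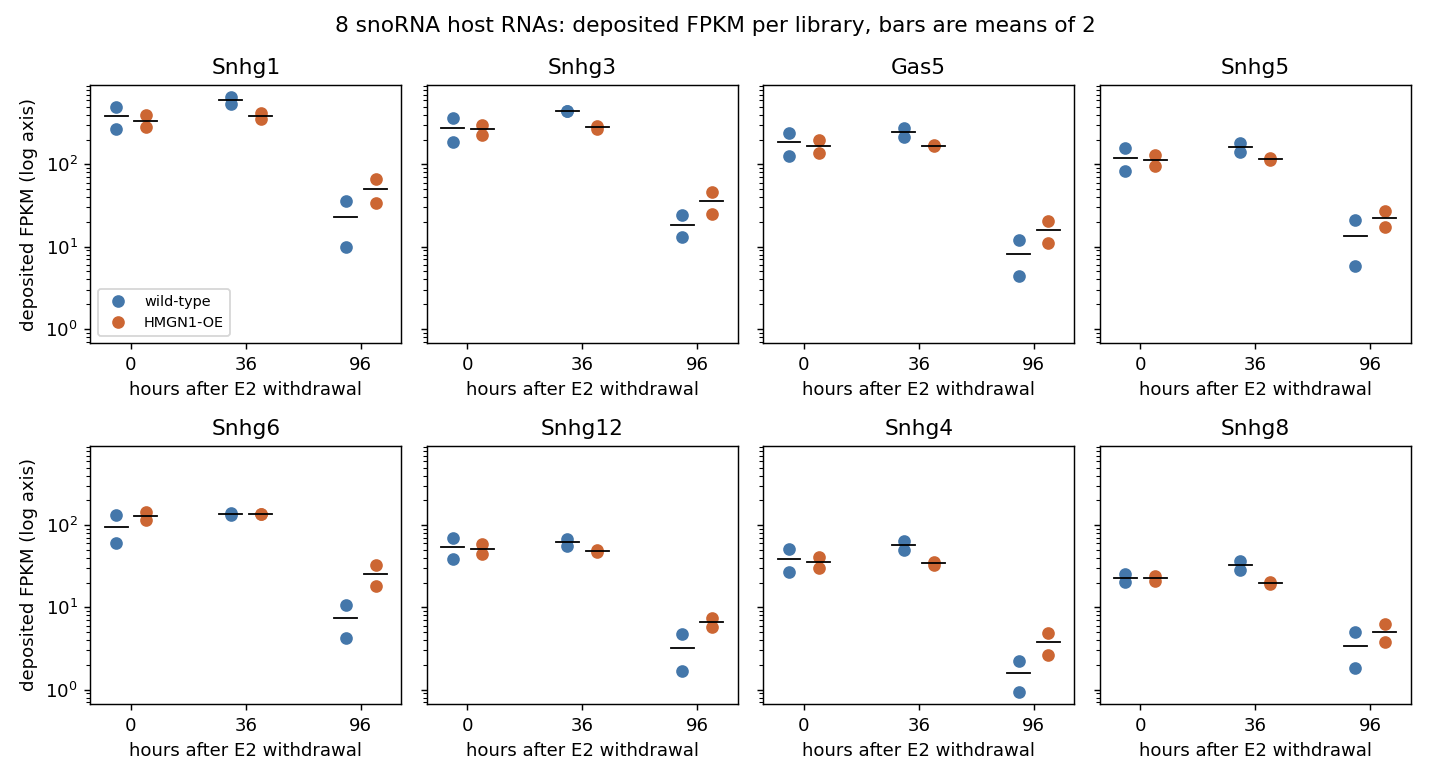
Deposited FPKM (log axis) of each of the 8 host RNAs against hours after E2 withdrawal, with a point for each library (blue wild-type, orange HMGN1-OE) and a bar at the mean of the 2 libraries of a group. In every panel the 4 libraries at 96 h lie below the 8 libraries at 0 and 36 h.

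FPKM is a level per length, so the host RNAs can be ranked. By mean over the 12 libraries the order was Snhg1 (299 FPKM), Snhg3 (222), Gas5 (132), Snhg5 (91.1), Snhg6 (89.1), Snhg12 (37.7), Snhg4 (28.5), and Snhg8 (17.8). Snhg1 exceeded Snhg3 in 11 of 12 libraries, Snhg3 exceeded Gas5 in 12, Snhg6 exceeded Snhg12 in 12, and Snhg12 exceeded Snhg4 in 12. Snhg5 was above Snhg6 in 6 of 12 libraries, which were the 6 wild-type libraries. For other neighbours the order changed with time. Gas5 was above Snhg5 in all 8 libraries at 0 and 36 h and below it in all 4 at 96 h. In the same way, Snhg4 was above Snhg8 in the 8 earlier libraries and below it in the 4 libraries at 96 h.

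The first question was how far these RNAs fell over the whole course, and whether by more than the general loss of RNA. Relative to the 0 h mean, wild-type cells at 96 h kept between 4.05% (Snhg4) and 14.9% (Snhg8) of the FPKM of the 8 host RNAs, where the median tested gene kept 22.6%. Gas5 kept 4.4%, Snhg1 5.91%, Snhg12 5.97%, Snhg3 6.66%, Snhg6 7.83%, and Snhg5 11.1%. HMGN1-OE cells kept between 9.6% (Gas5) and 22.4% (Snhg8), where the median gene kept 33.7%. All 8 were thus under the median gene in both genotypes, as they were with any 1 library of the 0 and 96 h groups left out. The wild-type percentages rested on unequal libraries. Without the first wild-type library at 96 h they ran from 2.37% (Gas5 and Snhg4) to 8.02% (Snhg8), with Snhg1 at 2.59%, Snhg5 at 4.85%, and the median gene at 13.7%. Without the second they ran from 5.72% (Snhg4) to 21.7% (Snhg8), with Snhg1 at 9.24%, Snhg5 at 17.3%, and the median gene at 31.1%. Snhg6 also moved to 12.4% without the second wild-type library at 0 h.

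On the deposited scale all 8 host RNAs fell from 0 to 96 h in the mean of both genotypes (limma, adjusted p under 0.05), from −2.26 ± 0.35 (SE) in Snhg8 to −3.87 ± 0.40 in Gas5, with a median of −3.32 on the log2 scale. Over all tested genes the median was −1.52 and 80.3% of genes were called lower, so the call alone says little of the host genes. On the centred scale, which removes the general loss, all 8 were again lower, where 37.1% of genes were called lower and 39.9% higher. The median of the 8 was −1.74 against 0.06 over all tested genes. Gas5 changed by −2.29 ± 0.12 (adjusted p = 5.58e-07), Snhg1 by −1.92 ± 0.19, Snhg4 by −1.87 ± 0.10, Snhg3 by −1.79 ± 0.13, and Snhg12 by −1.68 ± 0.06. Snhg6 (−1.37 ± 0.13), Snhg5 (−1.19 ± 0.14), and Snhg8 (−0.68 ± 0.13, adjusted p = 0.0011) changed less. Ranked from the most negative change, Gas5 stood at 1.5% of all tested genes, Snhg1 at 2.99%, Snhg5 at 10.4%, and Snhg8 at 22.8%.

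Each genotype showed the fall by itself on the centred scale. In wild-type cells all 8 were called lower (33.8% of genes), from −0.68 ± 0.18 in Snhg8 to −2.56 ± 0.17 in Gas5, with a median of −1.94. In HMGN1-OE cells all 8 were called lower (32.5% of genes), from −0.67 ± 0.18 in Snhg8 to −2.03 ± 0.17 in Gas5, with a median of −1.48. Snhg8 was the member whose call rested on single libraries. Its adjusted p was 0.0669 in wild-type cells without the first 0 h library, and in HMGN1-OE cells 0.079 without the second 0 h library and 0.0828 without the first 96 h library. In the mean of both genotypes all 8 stayed called with any 1 library left out, the low wild-type library at 96 h included.

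**Figure D2:**
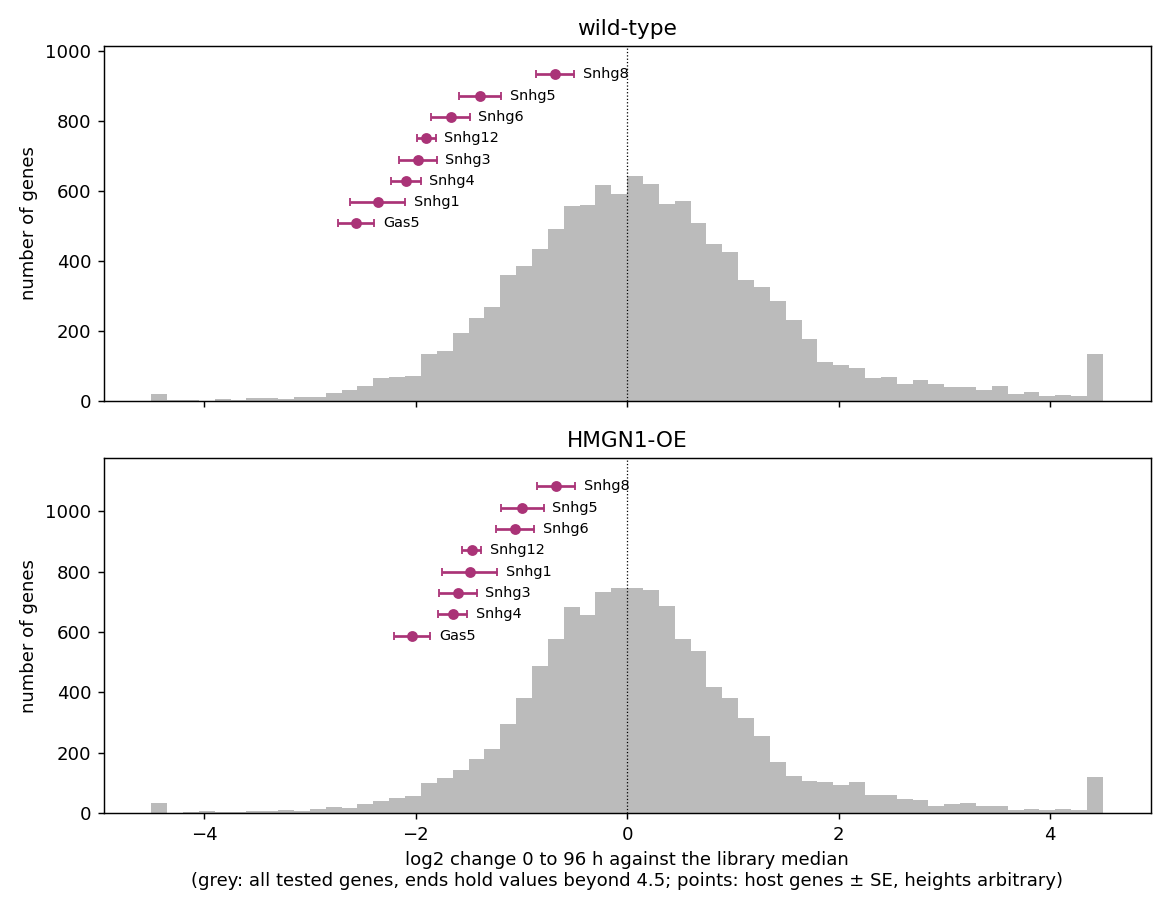
Log2 change from 0 to 96 h against the library median in wild-type (top) and HMGN1-OE cells (bottom), with all tested genes as a grey histogram and the 8 host genes as points with their SE. All 8 points lie left of 0 in both panels, with Gas5 farthest left and Snhg8 nearest to 0.

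The fall came after 36 h. From 0 to 36 h no host RNA was called on the deposited scale, where 2.21% of genes were, and none on the centred scale, where 0.512% were. The centred changes ran from −0.15 in Snhg12 to 0.21 in Snhg1, with 1 of 8, Snhg12, and 15.8% of genes under an unadjusted p of 0.05. From 36 to 96 h all 8 were lower on the centred scale, as were 36.9% of genes, with a median of −1.71. Gas5 (−2.30 ± 0.12) and Snhg1 (−2.13 ± 0.19) had the largest changes and Snhg8 (−0.58 ± 0.13) the smallest. The summed FPKM of the 8 made up 0.12% to 0.139% of the FPKM of a library at 0 and 36 h and 0.0183% to 0.0379% at 96 h.

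The second question was whether HMGN1-OE cells differed. No host RNA was called between genotypes at 0 h (1.36% of genes as deposited, 0.104% centred), at 36 h (1.26% and 0.0521%), or at 96 h (0.669% and 0.0608%), and none in the interaction of genotype with the change from 0 to 96 h (0.677% and 0.0347%). As deposited, 7 of the 8, all but Snhg6, were lower at 36 h in both HMGN1-OE libraries than in either wild-type library. The same was so for 84.4% of tested genes, whose median difference was −0.54, so this was near the general share. At 96 h the deposited differences ran from 0.52 to 1.69, with a median of 0.92 where the median of all genes was 0.36. For Snhg3, Snhg4, and Snhg12 the HMGN1-OE libraries lay wholly under the wild-type range at 36 h and wholly over it at 96 h, as for 6.42% of genes. The deposited median of the 8 at 96 h was 1.54 without the first wild-type library, when 2 of the 8 (Snhg1 and Snhg6) and 1.1% of genes were called, and 0.40 without the second.

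Centred values at 96 h were higher in HMGN1-OE cells for all 8, by 0.12 in Snhg8 to 1.28 in Snhg6, with a median of 0.52 against −0.05 over all genes (0.32 without the second HMGN1-OE library). Neither HMGN1-OE library fell into the wild-type range, and each was above it, for 6 of the 8, which was so for 21.7% of genes. Snhg5 (1.45 and 1.76 against 1.47 and 0.75 above the library median) and Snhg8 overlapped. An unadjusted p under 0.05 was reached by 7 of the 8 and 17.9% of genes, and an adjusted one by 0 of the 8, with adjusted p of 0.218 for Gas5, Snhg1, and Snhg4, 0.152 for Snhg12, and 0.0771 for Snhg6. Snhg6 was called with a pseudocount of 0.1 (adjusted p = 0.0459), quantile normalization (0.0287), or equal sums of FPKM (0.0362), where 0.104%, 0.226%, and 0.2% of genes were called. Without the first wild-type library at 96 h, 4 of the 8 (Snhg1, Snhg5, Snhg6, and Snhg12) and 11% of genes were called. The summed FPKM of the 6 immature markers at 96 h was 790 and 2300 in HMGN1-OE against 670 and 118 in wild-type libraries, also with no overlap. The granule genes Prtn3 (mean 599 against 175 FPKM), Elane (361 against 75.2), and Ctsg (315 against 63.8) held most of it, while Cd34 was at 2.33 against 5.59 and Kit at 9.21 against 8.77. The part of these markers in the differences was not tested. The interaction was positive for all 8 on this scale, from 0.01 in Snhg8 to 0.87 ± 0.37 in Snhg1, with a median of 0.43 and adjusted p from 0.462 to 0.99.

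Against the library median, Snhg6 had the largest difference between genotypes of the 8 at each time. As deposited its difference at 36 h was the smallest of the 8 (−0.01). Relative to the library median it stood at 2.72 and 2.93 in HMGN1-OE against 2.03 and 2.27 in wild-type cells at 0 h, at 2.80 and 2.92 against 2.38 and 2.19 at 36 h, and at 1.5 and 2.03 against 0.58 and 0.38 at 96 h. The groups did not overlap at any time. The differences were 0.67 ± 0.18 (adjusted p = 0.464), 0.57 ± 0.18 (adjusted p = 0.981), and 1.28 ± 0.18 (adjusted p = 0.0771). Among the 8, Snhg12 shared this order at all 3 times, as did 1.84% of genes. The mean of the differences over the 3 times, a comparison chosen after these values were seen, was 0.84 ± 0.10 for Snhg6 (adjusted p = 0.0126, 0.33% of genes called) and 0.30 ± 0.05 for Snhg12 (adjusted p = 0.080). On the deposited scale the Snhg6 mean was 0.74 ± 0.32 (adjusted p = 0.531), and on the centred scale its adjusted p was 0.0518 and 0.0514 without the first and the second HMGN1-OE library at 36 h.

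The ratio of 2 genes within a library needs no centring. The deposited values had already been normalized by the authors to the synthetic RNAs, and a ratio is not free of that step. The log2 ratio of Snhg6 to Snhg5, its neighbour in level, was 0.16 and 0.29 in HMGN1-OE libraries at 0 h, 0.28 and 0.19 at 36 h, and 0.05 and 0.27 at 96 h. In wild-type libraries it was −0.46 and −0.25, −0.11 and −0.35, and −0.95 and −0.45. Snhg6 therefore exceeded Snhg5 in 6 of 6 HMGN1-OE libraries and in 0 of 6 wild-type libraries. The pair was chosen after its values were seen, so no test is given. Of the 28 pairs of host RNAs, 2 had ratios that did not overlap between the genotypes over all 12 libraries, Snhg6 with Snhg5 and with Snhg3. Of 11514 other genes, 12.4% gave a ratio of Snhg6 to the gene that was higher in every HMGN1-OE library than in any wild-type one, and 0.304% gave a ratio to Snhg5 that separated the genotypes in either direction.

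**Figure D3:**
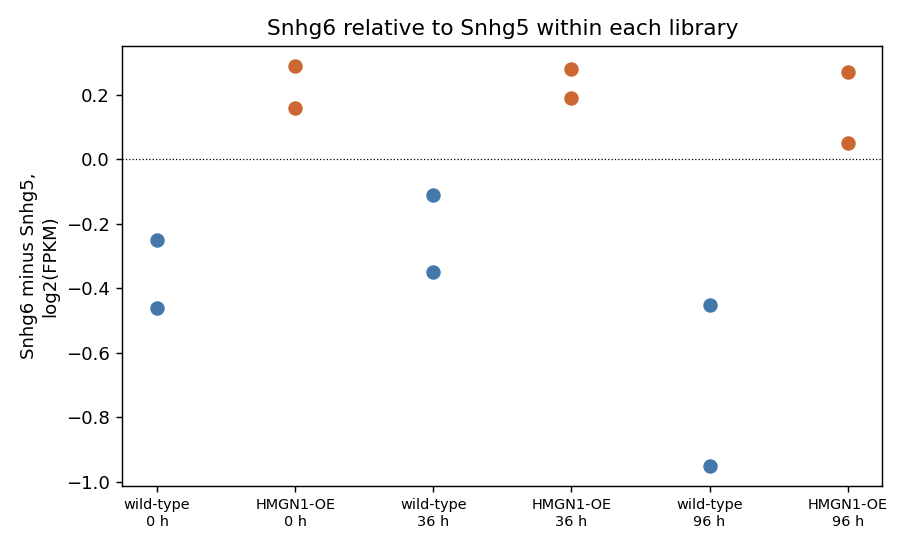
Log2 ratio of Snhg6 to Snhg5 FPKM within each library, with a point for each library (blue wild-type, orange HMGN1-OE) by genotype and time. All 6 HMGN1-OE points are above 0 (0.05 to 0.29) and all 6 wild-type points below (−0.95 to −0.11).

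The host RNAs moved together over the course, less so before the fall. Over 12 libraries on the centred scale the 28 pairs had Pearson's r from 0.784 to 0.993, with a median of 0.951. Over the 8 libraries at 0 and 36 h the range was −0.295 to 0.882 and the median 0.397. These points share libraries and the step to 96 h, so r is a description. Among the genes whose profiles were most like the mean profile of the 8 over 12 libraries were Eef1e1, a factor of the multisynthetase complex (r = 0.9984), Ccdc58 (0.9969), Rpl24, of the large ribosomal subunit (0.9968), Ppil3 (0.9966), Tomm5, of the mitochondrial import pore (0.9966), Fcf1, a ribosomal RNA processing factor (0.9965), Nudcd1 (0.9964), Rars, arginyl-tRNA synthetase (0.9964), and Paics, of purine synthesis (0.9964). Of 11508 other genes, 24.2% had r over 0.9, so a high r was common.

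The snoRNAs themselves were hardly measured. RefSeq places 27 snoRNA genes within the 8 hosts, and of 29 hosted snoRNA names looked for, 9 were listed. Of these, Snord47, Snord87, Snora24, Snora61, and Snord99 stayed at 0.0967 to 0.12 FPKM in every library, near the lowest values of the table. The sequences below, from GENCODE vM21, show a hosted snoRNA with a high level, another with a lower one, and Snord47, which was at the floor, with the D box (CTGA) or the ACA box and, in Snord47, the C box (GTGATGA) in capitals.
Snord22, in Snhg1: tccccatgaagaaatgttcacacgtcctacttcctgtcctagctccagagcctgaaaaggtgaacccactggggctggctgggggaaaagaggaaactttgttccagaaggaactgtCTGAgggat
Snora16a, in Snhg12: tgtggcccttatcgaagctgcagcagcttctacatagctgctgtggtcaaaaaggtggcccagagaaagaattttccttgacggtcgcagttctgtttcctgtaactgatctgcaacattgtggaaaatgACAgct
Snord47, in Gas5: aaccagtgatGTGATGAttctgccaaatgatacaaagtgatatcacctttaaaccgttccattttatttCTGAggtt
Snord22, which is 126 bases long, had 680 and 1360 FPKM in wild-type and 1240 and 605 in HMGN1-OE cells at 0 h, 1140 and 1740 against 1010 and 961 at 36 h, and 87.7 and 35.4 against 41.2 and 153 at 96 h. Its centred change from 0 to 96 h was −2.18 ± 0.30 (adjusted p = 0.000125), beside −1.92 in its host Snhg1. Snora16a, 136 bases long, changed by −2.38 ± 0.50 (adjusted p = 0.00182) beside −1.68 in its host Snhg12, with the second wild-type library at 96 h at 0.0236 FPKM. Snora44 and Snora74a were not called on the centred scale, while as deposited both were called lower (−1.68 and −1.66). Snora44 differed widely within a group, with 33.3 and 0.15 FPKM in wild-type cells at 0 h. Reads from a polyA library in these intervals may belong to the host transcript, and host and snoRNA cannot be told apart here. Gas5 likewise overlaps Zbtb37, and Snhg6 overlaps Mcmdc2, in RefSeq, and the library kit does not keep the strand, so the assignment of reads is uncertain there.

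Groups of genes around the host RNAs were read on the same centred scale from 0 to 96 h, beside 37.1% of genes lower and 39.9% higher. As deposited, where 80.3% of genes were lower, no gene of the 7 groups below was called higher. Other noncoding snoRNA hosts were lower in 6 and higher in 0 of 9 tested, with a median of −0.76. Zfas1 (listed by an older name, −1.95, mean 94.8 FPKM), Snhg15 (−1.71), and Snhg9 (−2.13) fell as the 8 did, while Snhg20 (−0.02, adjusted p = 0.816) and Snhg10 (0.23, adjusted p = 0.466) were not called. Protein-coding snoRNA hosts were lower in 36 and higher in 0 of 37, with a median of −1.11. This group is not separate from those below. Its ribosomal protein genes are counted again among the cytosolic ribosomal proteins, and Dkc1 and Nop56 among the snoRNA particle proteins. Dkc1, the pseudouridine synthase (−2.42), and Nop56, a box C/D core protein (−2.28), changed most, the abundant Rpl32 (−0.88), Rps12 (−1.11), and Rps20 (−0.95) less, and Eif4a2 (−0.34) and Tpt1 (0.07, adjusted p = 0.637) least.

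Proteins of the snoRNA particles were lower in 15 and higher in 1 of 16, with a median of −2. Nop10, of the H/ACA particle (−2.58), the assembly helicase Ruvbl1 (−2.44), and the methyltransferase Fbl (−1.97) were among those that fell, Nufip1 fell by 0.56, and Pih1d1 rose by 0.45 on this scale but not as deposited (−1.13). Cytosolic ribosomal proteins were lower in 77 and higher in 1 of 80, with a median of −0.95, and the 3 with the highest means, Rplp1, Rpl41, and Rps29, changed by −1.12, −0.91, and −0.57. Rpl26 (−2.32, SE 0.94) and Rpl30 (−1.99) changed most, although Rpl26 was listed at a mean of 0.0431 FPKM in wild-type cells at 96 h and changed by −4.13 there and by −0.51 (adjusted p = 0.752) in HMGN1-OE cells. Fau (−0.15, adjusted p = 0.306) was not called, and Rpl3l, a low muscle paralog (mean 0.837 FPKM), rose by 1.83 only on the centred scale. In the mTOR and pyrimidine-tract list, 11 of 15 were lower and 3 higher, with a median of −0.42. Myc (−2.32), Cnbp (−1.56), and Eif4ebp1 (−0.95) fell, while Mlst8 (1.61) and Rps6kb2 (0.38) were higher on the centred scale and 0.04 and −1.20 as deposited.

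Nonsense-mediated decay factors, which act on noncoding host RNAs, were lower in 7 and higher in 1 of 15, with a median of −0.06, while as deposited all 15 were lower, with a median of −1.64. The exon junction proteins Magoh (−0.90), Eif4a3 (−0.63), and Rbm8a (−0.57) fell on the centred scale, and Casc3, also of this complex, was not called (0.04, adjusted p = 0.636). The exonuclease Xrn1 was higher by 0.34 (−1.24 as deposited), and Smg9 was not called (0.18, adjusted p = 0.0929). Other long noncoding RNAs, which host no snoRNA of this kind, were lower in 2 and higher in 6 of 11 tested, with a median of 0.30, and as deposited 8 were lower and 0 higher, with a median of −1.28. Norad (−0.81) and Mir17hg, the host of a microRNA cluster (−1.58), fell on both scales. Malat1 (1.11), Neat1 (1.81), Tug1 (0.30), and Dleu2 (1.91) were higher on the centred scale only, and as deposited they changed by −0.47, 0.23, −1.28, and 0.33.

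**Figure D4:**
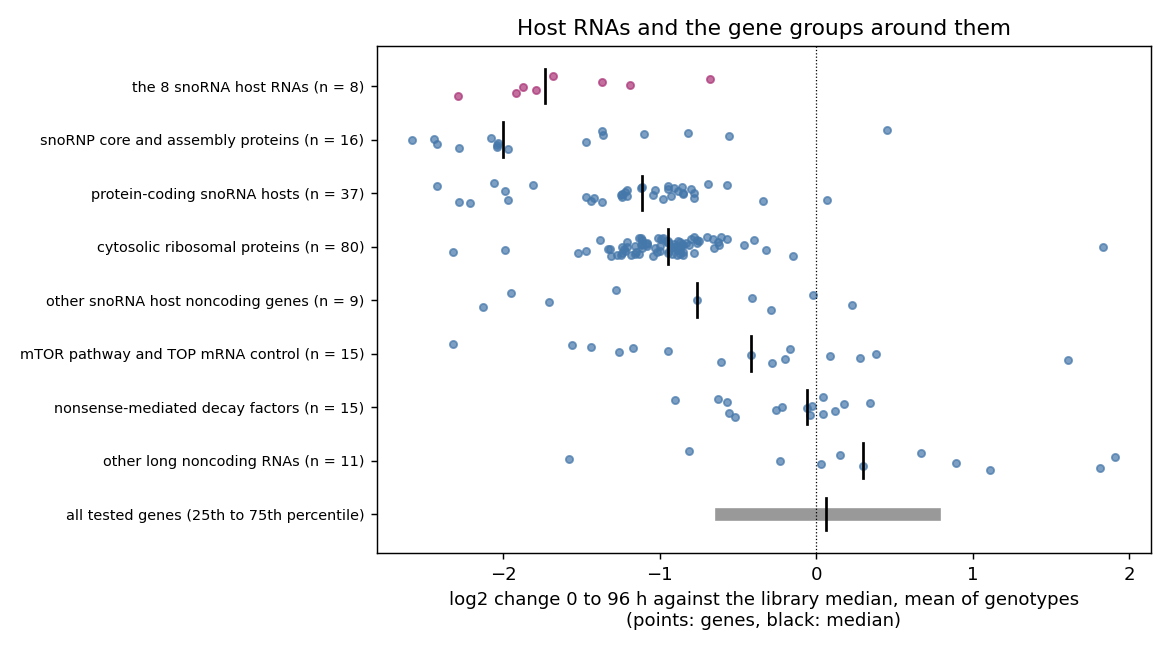
Log2 change from 0 to 96 h against the library median, mean of both genotypes, with a point for each gene of a group and a black line at its median, and the 25th to 75th percentile of all tested genes as a grey bar. The medians run from −2 in snoRNA particle proteins and −1.74 in the 8 host RNAs to 0.30 in other long noncoding RNAs. Some groups share genes.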

How the data were processed

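Equal numbers of cells were lysed for every sample, ERCC RNAs were added, and polyA libraries were made with a kit that does not keep the strand. Per the paper's methods the authors aligned reads with Bowtie, computed RPKM, and applied loess normalization on the ERCC RNAs. The submitters' processing notes name HISAT, Cufflinks 2.0.0, and mm9 instead. The deposited table holds FPKM for 23309 genes and 92 ERCC RNAs. It holds no counts, and no step put more than 29.9% of the low values of a library near whole reads, so depth is unknown and no counting error is given. The 30 ERCC RNAs over 1 FPKM had median deviations from −0.025 to 0.035 (log2) between libraries.

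The filter kept 11516 genes that reached 1 FPKM in 2 or more libraries. log2(FPKM + 1), as deposited or with the library median subtracted, was fitted with limma 3.58.1 in R 4.3.3 (trended eBayes), which estimated 6 group means. Tests were two-sided, p-values were adjusted by Benjamini-Hochberg over the 11516 genes, and the threshold for a call was 0.05. Fold changes on this scale understate changes of low genes. As deposited, limma took each variance from its trend alone, so those standard errors do not hold a gene's own spread, and on the centred scale the prior had 2.87 degrees of freedom. An exact permutation of 2 against 2 libraries cannot go below p = 0.333. Groups came from the genotype and time in column names. The script was tested on simulated data.

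The members and lists were chosen with earlier results of these data known. The text names the 8 hosts, and in each list (other noncoding hosts, coding hosts, hosted snoRNAs, snoRNA particle proteins, decay factors, mTOR and pyrimidine-tract control, ribosomal proteins, other long noncoding RNAs) the 3 highest by mean FPKM and the 2 largest and 2 smallest changes, plus the 10 most similar profiles. Some items under this rule are not reported here. Alternatives were a pseudocount of 0.1, no filter or a mean of 5 FPKM, limma without trend or with its robust option, the compared groups alone, quantile or sum scaling, and each library left out. A block by column suffix, the mean genotype difference over times, the 36 to 96 h interaction, and percent of the 0 h mean were added after the values were seen. Figures were drawn with matplotlib.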

Additional observations from a re-analysis of the deposited data

Results flagged for a closer look

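For Snhg3, Snhg4, and Snhg12, each HMGN1-OE library lay under each wild-type library at 36 h, and over each of them at 96 h, on the deposited scale, so the genotype difference pointed opposite ways at the 2 times. The same crossing was seen in 6.42% of tested genes. The interaction of genotype with the change from 36 to 96 h, chosen after the values were seen, was 1.57 for Snhg3, 1.59 for Snhg4, and 1.26 for Snhg12, each with an adjusted p of 0.355 (limma). Without the first wild-type library at 96 h these were 1.99, 1.96, and 1.81, and without the second 1.14, 1.21, and 0.71, with adjusted p from 0.0673 to 0.808 over all alternatives. The interaction was positive for all 8 host RNAs and larger in Snhg1 (1.92) and Snhg6 (1.69), and the median of all tested genes was 0.92. Against the library median the interactions were 0.59, 0.61, and 0.28, each with an adjusted p of 0.677, and Snhg12 was then higher in HMGN1-OE libraries at both times.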

How the results depend on the processing

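All 8 host RNAs stayed called lower from 0 to 96 h and from 36 to 96 h, in the mean of genotypes and on both scales, under every alternative run, and none was called from 0 to 36 h or in the 0 to 96 h interaction. Within a genotype on the centred scale, leaving out a library left 7 to 8 called. Without a filter, when the library median covers all 23309 genes, the centred medians of the 8 were −3.13 (0 to 96 h), −3.55 (wild-type), −2.65 (HMGN1-OE), −3.27 (36 to 96 h), 0.19 (0 to 36 h), −0.48 (genotype at 36 h), 0.88 (genotype at 96 h), and 0.88 (interaction). With equal sums of FPKM, of which S100a8 and S100a9 held 15.6% to 28.1% at 96 h (S100a9 was listed at 0.0511 FPKM in the first wild-type library), they were −2.23, −2.42, −1.98, and −2.20 for the first 4, while the median of all tested genes moved from 0.06 to −0.57 (0 to 96 h). The genotype comparison at 96 h called 1 host RNA, Snhg6, with a pseudocount of 0.1, no filter, quantile normalization, or equal sums (0.104%, 0.699%, 0.226%, and 0.2% of genes). Leaving out 1 library gave 0 to 4 calls there centred and 0 to 2 as deposited, with medians from 0.32 to 0.74 and from 0.40 to 1.54. The same gave −4.27 to −3.26 for the fall in wild-type cells as deposited, −1.64 to −1.25 for the centred fall in HMGN1-OE cells, and interactions from 0.46 to 1.61 as deposited and from 0.25 to 0.64 centred. The Snhg6 mean over times ranged from 0.76 to 0.93, with an adjusted p of 0.144 without a filter. The cause of these shifts was not tested.

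Over all genes, 4273 were lower and 4594 higher from 0 to 96 h on the centred scale, against 9248 and 646 as deposited, 7098 and 2199 with equal sums, and 9189 and 11316 without a filter. Column names end in 0 or 1 and titles number the cultures 1 and 2. With this suffix as a replicate block, chosen after the values were seen, 8 host RNAs stayed called lower from 0 to 96 h and 0 between genotypes at any single time, Snhg6 stayed called in the mean over the 3 times (adjusted p = 0.0313), and the genes called at 96 h between genotypes, centred, fell from 7 to 1. Same-suffix libraries deviated together with r over 0.1 in 3 of 15 pairs of groups (−0.37 to 0.18), so the suffix is not taken to pair them. With 2 libraries per group and unknown depth, small differences between genotypes cannot be resolved.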
